A study of Homo sapiens with 10 samples.

Results

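Kinase inhibition and direct binding of RNA polymerase II were set side by side in A549, a human lung adenocarcinoma line of epithelial origin. The comparison was between the 2 libraries labelled DRB 10 µg/mL and the 2 libraries labelled α-amanitin 2 µg/mL, chosen by their labels, that is, 4 of the 10 libraries of the series. The 2 DMSO libraries served as the untreated reference, the 2 libraries labelled α-amanitin 1 µg/mL entered the fit only for the estimate of spread, and the 2 libraries labelled DRB 25 µg/mL were left out of the main fit. All cells were the same line with no genetic change named in the labels. α-Amanitin was given for 24 h, while how long DRB and DMSO were applied was not given in the sources used here. Dose, agent and possibly duration therefore differed together between both drugs and cannot be told apart. Polyadenylated RNA was sequenced from each library with a strand-marking kit. No source says whether the 2 libraries of a group came from separate cultures, so each p-value measures only the spread between these libraries, which may be technical.

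α-Amanitin, a cyclic peptide of the death cap mushroom, binds the largest subunit of RNA polymerase II, slows its movement along the template and over hours leads to degradation of that subunit. DRB (5,6-dichloro-1-beta-D-ribofuranosylbenzimidazole) is a nucleoside analog that inhibits kinases, chiefly CDK9 of the P-TEFb complex. CDK9 phosphorylates the polymerase tail and the pausing factors NELF and DSIF, and so releases the polymerase from the pause near the promoter. Both agents lower the output of new transcripts, so transcripts with short half-lives are lost first in poly(A)+ RNA and the shares of long-lived transcripts rise. Most introns are removed while the polymerase is still on the gene, so its speed can also alter which exons are joined.

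The deposited tables list exon junctions of each library with numbers of reads. A split read spans 2 joined exons, and the split reads of a gene were summed over its introns as its level. These levels were scaled with TMM factors to CPM (split reads at a common library total) and are therefore relative to the rest of the library. In bulk RNA of this kind, fewer cells and less RNA per cell cannot be told apart. The DRB 10 libraries held 3945772 and 4929783 split reads and the α-amanitin 2 libraries 5418093 and 5925116, against 4297890 and 4765752 under DMSO. The lowest sum of reads of any kind at both splice sites of a listed intron was 11. The authors' junction filters can also remove introns, so an unlisted intron holds an unknown number of reads and not necessarily 0. Folds of low genes are exaggerated by that listing minimum. Genes called here as holding in 3 ways passed the test with unlisted introns at 0, with unlisted introns at 10, and over the introns listed in every library, with 1 direction throughout, a criterion chosen after the data were seen. For the value of 10, an intron whose highest listed number of split reads was lower took that number instead.

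The A549 label was compared with marker lists. The keratins KRT7, KRT8 and KRT18 were present in every library, whereas 7 of the 10 epithelial markers had no listed split read in any library. Of the markers of other cell types, 6 of 7 immune, 5 of 5 endothelial and 6 of 7 fibroblast genes were at 0. Scaled by the library total alone, without TMM factors, the epithelial markers summed to 772.6 to 830.3 CPM at DRB 10, 1414.7 to 1421.4 at α-amanitin 2 and 1384.6 to 1390.0 under DMSO. On the same scale the fibroblast gene COL1A1 was present in every library and varied between replicates. It was at 159.19 and 12.51 under DMSO, 83.6 and 28.81 at α-amanitin 2 and 21.8 and 2.26 at DRB 10.

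The first question was which genes differed between the drugs. Of 9450 genes tested, 1209 were higher at DRB 10 (12.8%) and 1381 were lower (14.6%) at a Benjamini-Hochberg adjusted p under 0.05 in limma voom. Of these, 838 higher genes (8.87% of those tested) and 1143 lower genes (12.1%) held in 3 ways. Among the called genes 46.7% were higher. The counts of each gene list below are to be read beside these shares of 12.8% higher and 14.6% lower over all genes. The shares depended on read number. In the quartile of genes with most split reads 17.3% were higher and 28.3% lower, and in the quartile with fewest 3.3% and 2.88%. Lists of genes with many reads are therefore better read beside the former. Scaling by the sum of split reads instead of TMM shifted the log2 difference of every gene by 0.129, and 61.7% of the called genes were then higher. The libraries of both drugs did not overlap in 6485 genes (68.6%), so lack of overlap alone was common. Relative to the shared DMSO libraries, 992 genes rose (10.5%) and 1273 fell (13.5%) at DRB 10, and 403 rose (4.26%) and 611 fell (6.47%) at α-amanitin 2. These counts rest on the same 2 control libraries and were not tested against each other. Protein-coding genes made up 1187 of the higher and 1369 of the lower genes, out of 9060 tested, and lncRNA genes 13 and 6 out of 222. The median log2 difference was -0.09 in the shortest quartile of genes, with lengths up to 14.37 kb, and 0.11 in the longest quartile, from 75.8 kb upward. In the shortest quartile 10.1% of genes were higher and 18.1% lower, compared with 15.4% and 11% in the longest.

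**Figure D1:**
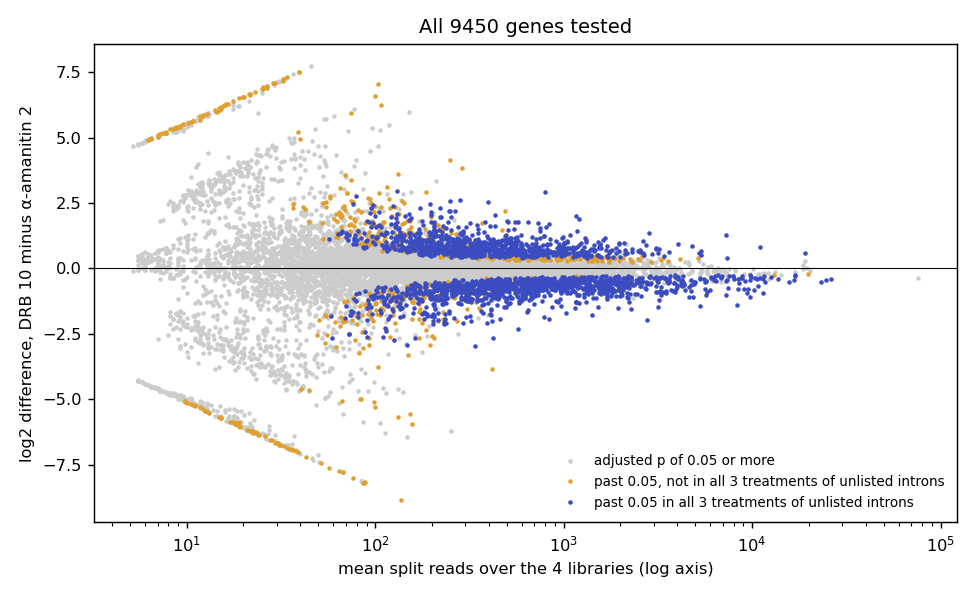
Mean split reads of each of the 9450 genes over the 2 DRB 10 and 2 α-amanitin 2 libraries (log axis) against the log2 difference between DRB 10 and α-amanitin 2, with each point a gene. Blue genes held in 3 ways, orange genes passed an adjusted p of 0.05 but did not hold in all 3, and the fan of extreme values at the left is made of low genes with unlisted introns.

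The largest differences among called genes with a mean of at least 50 split reads over the 4 libraries lay in genes with many unlisted introns. The 10 largest positive log2 differences at that minimum, from 3.09 to 7.03, belonged to DCLK2, FYCO1, TMEM63A, OSBPL5, LRSAM1, RPTOR, EEF2K, KATNIP, NCOA6 and CREBBP. RPTOR, the adaptor subunit of the mTORC1 kinase, stood at 110.4 and 115 CPM at DRB 10, at 4.46 and 12.3 at α-amanitin 2 and at 46.4 and 40.5 under DMSO. With unlisted introns at 10 the same 10 genes lay between 0.42 and 1.13 and all 10 passed. At α-amanitin 2, however, 349 of their 380 pairs of intron and library were unlisted and took the set number. That number does not vary between replicates, so passing there adds no support. The 10 largest negative differences at the same minimum belonged to ANKRD13A, CAMK1, IFI30, MCAM, COCH, SLC6A8, VAV1, MEST, PLA2G4A and ADD3, of which 9 were listed at 0 in both DRB 10 libraries. Their values lay between -1.37 and -0.17 with unlisted introns at 10, and 8 of the 10 passed, VAV1 and PLA2G4A being the exceptions. The same limit applies, since 234 of 236 such pairs were unlisted at DRB 10. None of these 20 genes had an intron set that was listed in every library, so none could hold in 3 ways.

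The transcription machinery itself differed, beginning with the target of α-amanitin. POLR2A (chr17:7387685-7417933, GRCh37, plus strand), which encodes the catalytic subunit that the toxin binds, had 214 and 219 CPM at DRB 10. It had 752 and 539.8 at α-amanitin 2 and 196 and 149 under DMSO, so the DRB libraries lay close above DMSO and the α-amanitin libraries far above both. The log2 difference was -1.55 ± 0.22 (SE, adjusted p = 0.0027), a level 2.98-fold higher at α-amanitin 2. Against DMSO, POLR2A rose by 1.90 on the log2 scale at α-amanitin 2 (adjusted p = 0.0077), whereas the DRB 10 value of 0.34 did not pass (adjusted p = 0.33). Among 12 tested subunit genes of RNA polymerase II, 6 were lower at DRB 10 and 2 higher, with a median log2 difference of -0.45 against 0 over all genes, and 6 and 1 of them held in 3 ways. The counts were 3 lower and 0 higher without DRB 10 replicate 2. POLR2L, a small zinc-binding subunit, stood at 136 and 128 at DRB 10 and at 275 and 211 at α-amanitin 2, a log2 difference of -0.86. POLR2F and POLR2E, both shared among the nuclear polymerases, were lower at DRB 10 by 0.75 and 0.60 on the log2 scale.

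The kinase that DRB inhibits did not differ by the test. CDK9 stood at 72.0 and 56.5 CPM at DRB 10, at 53.9 and 50.7 at α-amanitin 2 and at 40.6 and 45.9 under DMSO, and its log2 difference of 0.27 ± 0.15 had an adjusted p of 0.19. HEXIM1, the inhibitor of P-TEFb in the 7SK particle, has no intron and therefore no split reads. Of 16 tested genes for P-TEFb, 7SK and tail kinases, 2 were higher and 1 lower, with a median of 0.20, where 12.8% and 14.6% of all genes were. CCNK, the cyclin partner of the tail kinases CDK12 and CDK13, was 1.70-fold higher at DRB 10, with 138 and 137 against 84.1 and 77.9. MEPCE, which caps 7SK RNA, was lower, with 13.3 in each DRB library against 28.7 and 27.6.

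The elongation factors NELF, DSIF and PAF moved in both directions. Of 16 tested, 6 were higher and 4 lower at DRB 10, with a median log2 difference of 0.30, and 3 and 4 held in 3 ways. The split depended on scaling and on single libraries: 8 were higher and 1 lower with the sum of split reads as the scaling, and 0 and 1 without DRB 10 replicate 2. NELFCD, a NELF subunit, stood at 15.2 and 24.7 at DRB 10, at 69.2 and 66.6 at α-amanitin 2 and at 79.7 and 75.0 under DMSO, a log2 difference of -1.75 ± 0.22 (adjusted p = 0.0017). NELFA, another subunit of the same complex, had 38.4 and 47.1 against 17.6 and 26.4 and rose by 0.98. LEO1 and RTF1, which act with the PAF complex, were 0.66 and 0.55 higher on the log2 scale. Of 17 cleavage and polyadenylation genes, 3 were higher and 0 lower by this limma test, with a median of 0.27. SYMPK, the scaffold of the cleavage complex, stood at 422 and 402 at DRB 10 against 211 and 196 at α-amanitin 2.

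**Figure D2:**
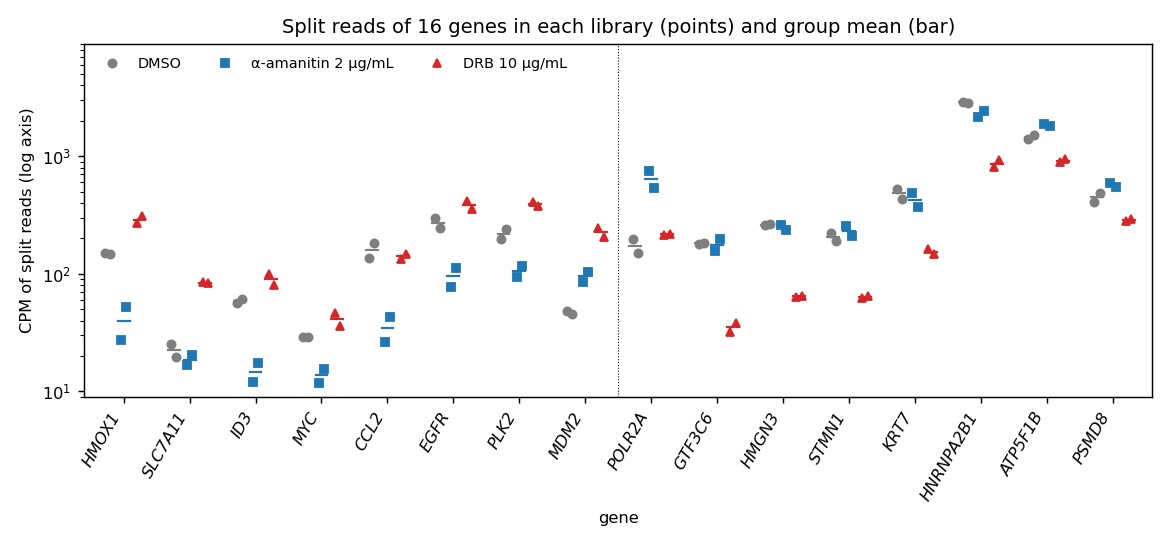
CPM of split reads (log axis) of 16 genes in each DMSO, α-amanitin 2 and DRB 10 library, with points for libraries and bars for the mean of the 2. In the 8 genes left of the dotted line both DRB 10 libraries lie above both α-amanitin 2 libraries, and in the 8 right of it both lie below.

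Many transcripts known for short half-lives were higher at DRB 10 than at α-amanitin 2. Of 20 tested immediate early and short-lived transcripts, 9 were higher and 1 lower, with a median log2 difference of 0.97. The 9 higher ones held in 3 ways and the lower one did not. Without DRB 10 replicate 1 or either α-amanitin 2 library 4 were higher, and without DRB 10 replicate 2, 7 were. The list's median against DMSO was 0.26 at DRB 10 and -0.88 at α-amanitin 2. ID3 (chr1:23884417-23885992, minus strand), an inhibitor of basic helix-loop-helix factors, stood at 99.8 and 80.6 CPM at DRB 10, at 12 and 17.5 at α-amanitin 2 and at 56.3 and 61.7 under DMSO. The log2 difference of 2.59 ± 0.28 (adjusted p = 0.0013) corresponded to a 6.12-fold higher level. MYC, the growth-promoting transcription factor, had 46.9 and 36.1 at DRB 10, 11.8 and 15.6 at α-amanitin 2 and 29.1 and 29.2 under DMSO, with a log2 difference of 1.55 ± 0.24 (adjusted p = 0.0039). MCL1, a short-lived survival factor of the BCL2 family, was at 52.4 and 53 at DRB 10, below the 59.6 and 74.4 of DMSO, and at 31.6 and 31.7 at α-amanitin 2. ZFP36L1, which promotes decay of mRNAs with AU-rich elements, was 1.76 higher on the log2 scale. ATF3, a stress-induced transcription factor, was the lower member, with 2.90 and 5.51 at DRB 10 and 22.9 and 17.1 at α-amanitin 2, but it did not hold in 3 ways. PLK2, a kinase induced by serum and stress and named for its large difference over introns listed in every library, had 406 and 377 at DRB 10 against 94.3 and 116 at α-amanitin 2 and 199 and 240.4 under DMSO.

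Most of the NF-kB and YAP list members that passed were also higher at DRB 10. Of 16 NF-kB factors and targets, 5 were higher and 1 lower, with a median of 0.67, and 4 and 1 held in 3 ways. The 5 higher genes became 3 without DRB 10 replicate 2 or α-amanitin 2 replicate 1. CCL2, a chemokine for monocytes, stood at 134 and 148 at DRB 10, at 26.5 and 43.1 at α-amanitin 2 and at 136 and 184 under DMSO, a log2 difference of 2.03 ± 0.34 (adjusted p = 0.0048). Its DRB 10 libraries lay near DMSO, whereas its α-amanitin 2 libraries lay 2.20 below DMSO on the log2 scale (adjusted p = 0.012). RELB, a subunit of the noncanonical NF-kB pathway, had 129.7 and 141 against 52.3 and 76.5. TNFAIP2 was the member that was lower, with 85.0 and 59.7 against 174 and 122. Of 11 YAP targets, 5 were higher and 1 lower, with a median of 0.65, and the same counts held in 3 ways. CCN1, a matrix protein that YAP induces, stood at 292 and 178 at DRB 10, at 70.7 and 86.1 at α-amanitin 2 and at 237 and 203 under DMSO. TEAD1, the DNA-binding partner of YAP, was at 240.3 and 229.9 against 103 and 111. AXL, a receptor tyrosine kinase, went the other way, with 193 and 184 at DRB 10, 589.8 and 501 at α-amanitin 2 and 338 and 296 under DMSO (log2 difference -1.53 ± 0.11, adjusted p = 0.00061). EGFR (chr7:55086710-55279321, plus strand), a growth factor receptor outside these lists, was 4.04-fold higher, with 414 and 356 at DRB 10, 77.7 and 113 at α-amanitin 2 and 296 and 247 under DMSO.

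Antioxidant genes under the factor NRF2 moved in both directions, with the larger differences upward. HMOX1 (chr22:35776354-35790207, plus strand), which degrades heme, stood at 269 and 309 CPM at DRB 10, at 27.3 and 52.0 at α-amanitin 2 and at 150.3 and 147 under DMSO. DRB 10 was above DMSO and α-amanitin 2 below it, with a log2 difference between the drugs of 2.91 ± 0.27 (adjusted p = 0.001), or 7.28-fold. SLC7A11 (chr4:139085251-139163503, minus strand), the cystine importer, had 85.5 and 83.1 at DRB 10 against 16.7 and 20.4, while DMSO was at 25.2 and 19.6. SRXN1, which reduces peroxiredoxins, had 59.4 and 43.0 against 9.49 and 14.0. In these last 2 genes the α-amanitin libraries lay near DMSO. Of 20 tested list members, 8 were higher and 4 lower, with a median of 0.14, and all 12 held in 3 ways. Without either DRB 10 library 1 was lower, while 7 or 8 were higher with any compared library left out. ABCC2, an export pump for conjugates, was among the lower ones, at 98.3 and 86.3 at DRB 10, 319 and 278 at α-amanitin 2 and 579 and 435 under DMSO.

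Targets of p53 had a median level above DMSO under both drugs, with a small median difference between the drugs. The median log2 difference of 24 tested targets was 1.43 at DRB 10 and 1.42 at α-amanitin 2 against the shared DMSO libraries, and 0.17 between the drugs, where 6 were higher at DRB 10 and 3 lower. Of these, 6 and 2 held in 3 ways, and without either DRB 10 library 0 were lower by limma. MDM2 (chr12:69201957-69239324, plus strand), the ubiquitin ligase that degrades p53, stood at 247 and 206 at DRB 10, at 85.4 and 104 at α-amanitin 2 and at 48.1 and 45.2 under DMSO. The 3 groups did not overlap, and the log2 difference between the drugs was 1.25 ± 0.13 (adjusted p = 0.0013). BAX, which permeabilizes the mitochondrial outer membrane, was at 222 and 202 against 112 and 117. PMAIP1, another proapoptotic target, was lower at DRB 10, with 5.31 and 5.51 against 21.3 and 20. TNFRSF10D, a decoy receptor for TRAIL, is outside this list and not among its 3 lower members. It had 20.1 and 22.4 at DRB 10, 152 and 119.6 at α-amanitin 2 and 6.48 and 19.8 under DMSO (log2 difference -2.65 ± 0.32, adjusted p = 0.0016). Of 11 tested genes of the BCL2 family, 2 were higher, BAX and MCL1, and 1 lower, PMAIP1, with a median of 0.47. Of 9 interferon-stimulated genes, 1 was higher and 1 lower, with a median of -0.75. That median was -0.15 with unlisted introns at 10, and -0.29 over introns listed in every library, where 3 genes had a value. OAS3, an antiviral enzyme, was the lower one, at 71 and 68.4 against 133 and 103.

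Genes for splicing factors moved in both directions between the drugs. Of 12 SR factors tested, 3 were lower and 0 higher at DRB 10 by this limma test, with a median of -0.17, and the list's median against DMSO was -0.63 at DRB 10 and -0.55 at α-amanitin 2. TRA2A, an SR-like activator of exons, stood at 48.3 and 49.8 at DRB 10, at 135 and 138 at α-amanitin 2 and at 113 and 112 under DMSO (log2 difference -1.48 ± 0.11, adjusted p = 0.00061). SRSF6 and SRSF7, regulators of exon choice, were lower by 0.89 and 0.83 on the log2 scale. Of 21 hnRNP genes, 6 were higher and 10 lower, with a median of -0.02, which became 0.11 with total split reads, and 5 and 9 held in 3 ways. Without DRB 10 replicate 2, 4 were higher and 6 lower, and without α-amanitin 2 replicate 2, 8 and 5. HNRNPA2B1 (chr7:26210771-26241149, minus strand), an abundant RNA-binding protein, had 810.3 and 922 at DRB 10, 2164 and 2403 at α-amanitin 2 and 2895 and 2857 under DMSO, a log2 difference of -1.40 ± 0.09 (adjusted p = 0.00061). The paralogs HNRNPH1 and HNRNPH2 moved apart. HNRNPH1 was at 302 and 234 at DRB 10 and at 566 in each α-amanitin 2 library, whereas HNRNPH2 was at 35.5 and 35.2 against 16.9 and 17.3. The 2 genes are similar in sequence, so the division of reads between them is uncertain.

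Among the core spliceosome genes, 9 of 27 were higher and 5 lower, with a median of 0.07, and 6 and 5 held in 3 ways. Without DRB 10 replicate 1, 4 were higher and 2 lower, and without DRB 10 replicate 2, 6 and 0. SF3A2, a subunit of the SF3a complex that contacts the branch site, stood at 402 and 329 at DRB 10, at 171 and 152 at α-amanitin 2 and at 168 and 153 under DMSO. SF3B4, SF1 and PRPF6 were higher by 0.92, 0.75 and 0.73 on the log2 scale. Of 12 splicing kinase and cyclin L genes, 3 were higher and 2 lower. Only CLK1, a kinase of SR proteins, held in 3 ways, with 28.5 and 24.0 at DRB 10 against 70.5 and 51.5. CDK11A and CDK11B, near-identical genes whose reads could be assigned to either, had log2 differences of 0.39 and 0.41. CCNL1, their cyclin partner, overlapped between the groups, with 79.2 and 53.4 at DRB 10 and 75.2 and 41.1 at α-amanitin 2 (adjusted p = 0.63). Of 14 nonsense-mediated decay genes, 5 were higher and 1 lower, with a median of 0.35, and 4 and 1 held in 3 ways. Only 2 were higher without DRB 10 replicate 2. SMG9, a subunit of the SMG1 kinase complex, stood at 89.8 and 109 at DRB 10, at 13.9 and 18.7 at α-amanitin 2 and at 55.1 and 78.6 under DMSO, a 6.09-fold higher level (adjusted p = 0.0015).

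**Figure D3:**
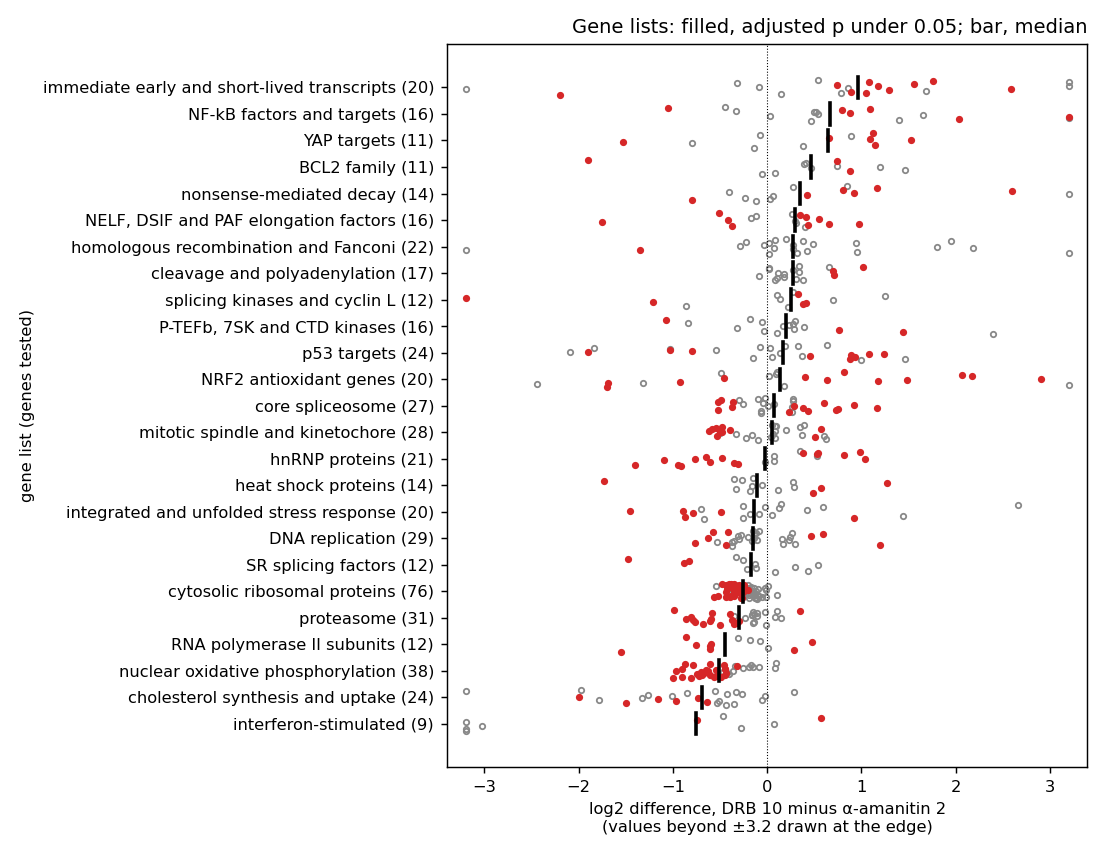
Log2 difference between DRB 10 and α-amanitin 2 for each tested gene (point) of 25 gene lists, with list sizes in parentheses, filled points for an adjusted p under 0.05 and a bar for the list median. Medians run from -0.75 for the interferon-stimulated list to 0.97 for immediate early and short-lived transcripts, and values beyond 3.2 in size are drawn at the edge. Unlisted introns are at 0 here. With unlisted introns at 10 these 2 medians are -0.15 and 0.74.

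Many genes of the large housekeeping complexes were lower at DRB 10. Of 38 nuclear genes of oxidative phosphorylation, 26 were lower and 0 higher by this limma test, with a median log2 difference of -0.51, and the same 26 held in 3 ways. ATP5F1B (chr12:57031959-57039768, minus strand), the catalytic subunit of ATP synthase, stood at 888 and 951 at DRB 10, at 1867 and 1814 at α-amanitin 2 and at 1399.9 and 1519 under DMSO. The 3 groups did not overlap, and the difference between the drugs was -1.0 ± 0.08 (adjusted p = 0.00061). The list's median against DMSO was -0.40 at DRB 10 and 0.12 at α-amanitin 2. Of 31 proteasome genes, 15 were lower and 1 higher, with a median of -0.30. PSMD8, a regulatory subunit, had 282 and 291 against 596 and 547, and PSMB5, a catalytic subunit, 100.2 and 94.3 against 167 and 169. Of 76 cytosolic ribosomal protein genes, 36 were lower and 0 higher, with a median of -0.26, and 34 held in 3 ways. Their differences were small, the largest being the -0.56 of RPL14, at 585 and 609 against 913 and 853. For comparison, 28.3% were lower in the quartile of all genes with most split reads. The counts of these lists also depend on the scaling. With scaling by the sum of split reads, 10 ribosomal protein, 20 oxidative phosphorylation and 11 proteasome genes were lower. Leaving out each of the 4 compared libraries in turn left 4 to 19 lower ribosomal protein genes, 16 to 22 of oxidative phosphorylation and 8 to 15 of the proteasome, fewest without DRB 10 replicate 2, together with DRB 10 replicate 1 for the proteasome.

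Of 24 genes for cholesterol synthesis and uptake, 6 were lower and 0 higher by this limma test, with a median of -0.69, and without DRB 10 replicate 2, 3 were lower. The list median was -0.47 with unlisted introns at 10 and -0.41 over introns listed in every library. LSS, which closes the sterol rings, stood at 17.4 and 29.3 at DRB 10, at 123 and 72.4 at α-amanitin 2 and at 57.6 and 44.3 under DMSO. EBP, IDI1 and FDPS, enzymes of the same pathway, were lower by 1.5, 1.16 and 0.97. Of 20 genes of the integrated and unfolded stress responses, 1 was higher and 5 lower. ATF4, the transcription factor of the integrated stress response, was the higher one, with 115 and 95.8 at DRB 10, 50.6 and 59.2 at α-amanitin 2 and 199 and 180.1 under DMSO. Other members of the list went the other way. PHGDH, which starts serine synthesis, was at 84.8 and 88.2 at DRB 10 and 300.3 and 189 at α-amanitin 2, and the chaperone CALR at 633 and 658 against 1193 and 1168. Of 14 heat shock proteins, 3 were higher and 1 lower. HSPA8, the constitutive chaperone, had 1991 and 2107 at DRB 10 against 658 and 1079, whereas the small heat shock protein HSPB1 had 36.2 and 35.0 against 133 and 105.

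Cell cycle genes moved in both directions. Of 28 genes of the spindle and kinetochore, 2 were higher and 8 lower, with a median of 0.05, where 12.8% and 14.6% of all genes were. With total split reads as the scaling, 6 were higher and 5 lower. Without DRB 10 replicate 1 or α-amanitin 2 replicate 2, 1 was lower, and without DRB 10 replicate 2, 2 were. KIF20A, a kinesin of cytokinesis, stood at 126 and 139.6 at DRB 10 against 204 and 205 at α-amanitin 2. NDC80, which binds microtubules at the kinetochore, was higher instead, with 171 and 186 against 103 and 139. Of 29 DNA replication genes, 3 were higher and 5 lower, with a median of -0.15, and 1 to 3 were lower with any 1 of the 4 compared libraries left out, fewest without DRB 10 replicate 1. CDT1, a licensing factor, was at 179 and 144 against 78.8 and 62.5, and MCM6, a subunit of the replicative helicase, at 240.3 and 214 against 327 and 374. Of 22 homologous recombination and Fanconi genes, 0 were higher and 1 lower by limma. That gene, BRIP1, had 9.9 and 11 against 27.5 and 26.9, but its sign turned from -1.35 to 0.30 over introns listed in every library.

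All 3 tested epithelial keratins were lower at DRB 10. KRT7 (chr12:52626304-52645970, plus strand) stood at 163 and 146 at DRB 10, at 486 and 367 at α-amanitin 2 and at 532 and 436 under DMSO (log2 difference -1.45 ± 0.20, adjusted p = 0.0022). KRT8 was at 197 and 200.2 against 454 and 441, and KRT18, its partner, at 368 and 423 against 529 and 618. Several genes outside the lists were among the 12 largest decreases that held in 3 ways over introns listed in every library. GTF3C6 (chr6:111279909-111289093, plus strand), a subunit of the TFIIIC factor for RNA polymerase III, had 32.1 and 38.4 at DRB 10, 157 and 198 at α-amanitin 2 and 179 and 184 under DMSO, a level 5.03-fold higher at α-amanitin 2 (adjusted p = 0.00064). HMGN3 (chr6:79910962-79944406, minus strand), a nucleosome-binding protein, had 63.5 and 65.4 against 262 and 237, with 258 and 265 under DMSO. STMN1, which destabilizes microtubules, had 62.1 and 64.8 against 255 and 212, with 224 and 191 under DMSO. In GTF3C6, HMGN3 and STMN1 the α-amanitin 2 libraries lay near DMSO and the DRB 10 libraries below both, which did not hold for others of the 12. CKB, the brain-type creatine kinase, had 15.2 and 16.2 at DRB 10, 83.7 and 58.9 at α-amanitin 2 and 37.6 and 26.3 under DMSO, and ADI1, an enzyme of methionine salvage, had 14 and 17.9, 47.7 and 58, and 29.4 and 34.3. TUBA4A, an α-tubulin, had 20.5 and 20.7 at DRB 10, 95.1 and 83.5 at α-amanitin 2 and 35.9 and 38.3 under DMSO, so each drug lay on its own side of DMSO. Among genes that were higher, GPRC5A, an orphan receptor of lung epithelium, had 177 and 175 at DRB 10, 45.9 and 56.3 at α-amanitin 2 and 53.8 and 51.6 under DMSO (log2 difference 1.78 ± 0.15, adjusted p = 0.00079). SLC6A6, the taurine transporter, had 244 and 175 against 76.1 and 47.2, with DMSO at 41.4 and 31.4.

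The next question was whether exons were included to different extents. Inclusion was taken from split reads that join an exon to its neighbours (inc) and reads that skip it (exc), as inc / (inc + 2 exc), and was tested with a quasi-binomial model whose spread was moderated across exons. Of 9119 exons, 86 were more included at DRB 10 (0.943%) and 143 less (1.57%) at an adjusted p under 0.05. Exons of the same gene with the same joining and skipping reads were then counted once. This left 113 of 7100 events (1.59%), 41 more and 72 less included, in 70 genes. Identical reads were still counted for both CHTF8 and DERPC. Events that share only their skipping reads, as in RBM12 and CPNE1, also stayed separate, so the events are not independent. These calls are sensitive to the samples that estimate the spread. Without the 2 α-amanitin 1 libraries 31 exons passed, and with only the 4 compared libraries 0 did, the lowest adjusted p being 0.057. With the replicate number as a block no exon call was left, at a lowest adjusted p of 0.15. With an unadjusted p under 0.05, 2114 exons differed. Exons of 7 genes also passed without the α-amanitin 1 libraries, namely RPS24, EEF1D, SET, RPS15, PRDX1, RPL5 and SNHG4, a set chosen after its values were seen.

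Sequences from the GRCh37 genome are shown for 5 short exons, since a whole exon fits between its splice sites here. The first is the exon with the lowest adjusted p, and the others are short exons skipped more often at DRB 10, all named after their values were seen. Each line runs 5′ to 3′ on the strand of the gene, with the exon in capitals and intron bases in lower case, so that the ag before and the gt after each exon are the splice site dinucleotides.
RPS24, chr10:79799962-79799983, plus strand: tcagTGAGCTGGAGATTGGATCACAGgtat
HNRNPC, chr14:21731470-21731495, minus strand: agTGAGATTTTTTTGATCTTCAGCTACAgt
GOPC, chr6:117898611-117898634, minus strand: aagTCTGGCCCCTCTGTGGAGGAGCTGgta
COL4A5, chrX:107913458-107913466, plus strand: ccctatccagGTCCTACAGgttagctcct
NSFL1C, chr20:1436359-1436364, minus strand: ctctgacttaagGAGCAGgtaggtagggca

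The 22-nt exon of RPS24, a protein of the small ribosomal subunit, lies in the 3′ untranslated region of the annotated transcript and had the lowest adjusted p. Its inclusion was 0.244 and 0.295 at DRB 10, 0.082 and 0.080 at α-amanitin 2 and 0.035 and 0.039 under DMSO (adjusted p = 0.0024). It was joined by 1701 and 2624 reads and skipped by 2630 and 3128 at DRB 10, against 977 and 1062 joined and 5489 and 6076 skipped at α-amanitin 2. Both drugs lay above DMSO, and DRB 10 above α-amanitin 2. EEF1D, an exchange factor of translation elongation, has a coding exon of 1091 nt whose inclusion followed the same order, at 0.538 and 0.546 at DRB 10, 0.148 and 0.123 at α-amanitin 2 and 0.090 and 0.047 under DMSO (adjusted p = 0.0051). In RPS15, another protein of the small subunit, a 221-nt exon was rare throughout, at 0.033 and 0.024, 0.006 and 0.004, and 0.001 and 0.002 in that order of groups.

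In SET, PRDX1 and HNRNPA2B1 the α-amanitin 2 libraries were the low ones. A 430-nt exon of SET, a histone chaperone, which is not in the annotation (chr9:131451505-131451934, plus strand), was included at 0.885 and 0.865 at DRB 10, at 0.455 and 0.517 at α-amanitin 2 and at 0.711 and 0.765 under DMSO (adjusted p = 0.0051). A 26-nt exon in the 5′ untranslated region of PRDX1, a peroxide-reducing enzyme, had 0.843 and 0.860, 0.609 and 0.612, and 0.75 and 0.758. No AG precedes this PRDX1 exon, so its inclusion need not describe the skipping of an internal exon. A 136-nt exon in the 3′ untranslated region of HNRNPA2B1 was at 0.538 and 0.494 at DRB 10, within the range of DMSO at 0.549 and 0.459, and at 0.249 and 0.267 at α-amanitin 2 (adjusted p = 0.036). The largest differences toward inclusion, in LMBR1, ADCY6 and DEPDC1, had the same order on few reads. The 94-nt exon of LMBR1 (chr7:156480792-156480885, minus strand) was never skipped at DRB 10 in 24 and 40 joining reads, and its inclusion was 0.333 and 0.429 at α-amanitin 2 and 1 and 0.793 under DMSO. An 852-nt coding exon of DEPDC1, a mitotic gene, stood at 0.727 and 0.662, 0.069 and 0.224, and 0.689 and 0.634. A read count listed at 0 need not mean that no read was there. The lowest value above 0 was 3, and junctions removed by the filters hold an unknown number of reads. A 60-nt coding exon of SPTAN1, the nonerythroid spectrin, was higher than both at DRB 10, at 0.754 and 0.617 against 0.276 and 0.319, with DMSO at 0.324 and 0.435 (adjusted p = 0.036).

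**Figure D4:**
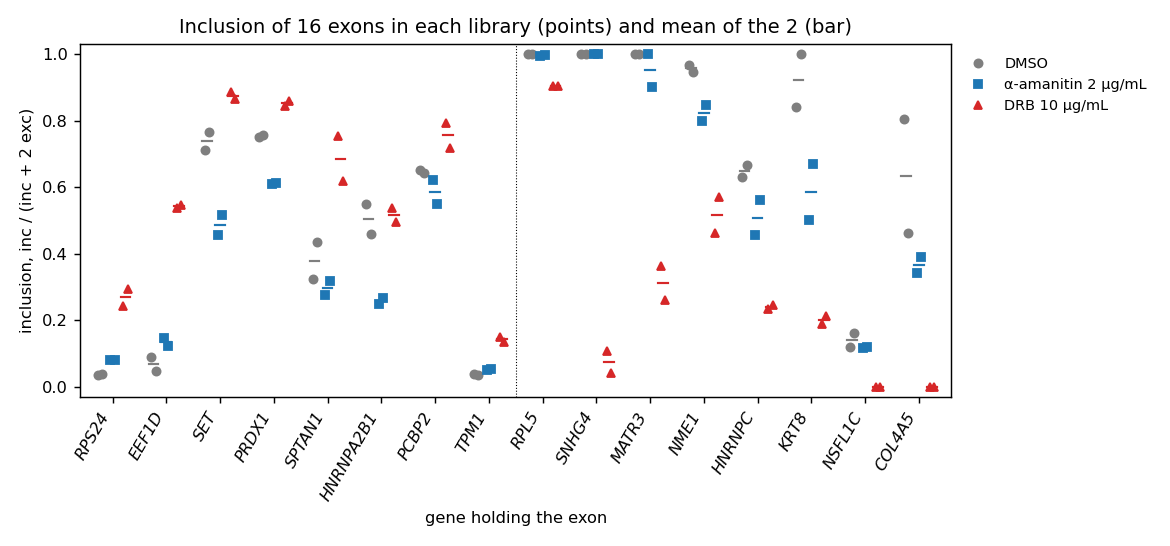
Inclusion, inc / (inc + 2 exc), from 0 to 1, of 1 exon in each of 16 genes in the DMSO, α-amanitin 2 and DRB 10 libraries, with points for libraries and bars for the mean of the 2. In the 8 exons left of the dotted line the DRB 10 libraries lie above the α-amanitin 2 libraries, and in the 8 right of it below.

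Several of the exons less included at DRB 10 had α-amanitin 2 near DMSO. The 70-nt coding exon of RPL5, a protein of the large ribosomal subunit, was included at 0.905 and 0.903 at DRB 10, at 0.993 and 0.996 at α-amanitin 2 and at 1 in both DMSO libraries (adjusted p = 0.0051). It was skipped by 50 and 69 reads at DRB 10 and by 6 and 4 at α-amanitin 2. In SNHG4, a noncoding host of a small nucleolar RNA, a 251-nt exon (chr5:138618428-138618678, plus strand) fell to 0.109 and 0.042 at DRB 10 and was at 1 in both α-amanitin 2 and both DMSO libraries, on 16 and 15 joining reads at α-amanitin 2. One α-amanitin 1 library stood apart there, at 0.407. MATR3, a nuclear matrix protein whose gene lies next to SNHG4 on the same strand, had 5′ exons at 0.362 and 0.261, against 1 and 0.902 at α-amanitin 2. A 171-nt exon of NME1, a nucleoside diphosphate kinase, had 0.461 and 0.570 at DRB 10, 0.799 and 0.846 at α-amanitin 2 and 0.966 and 0.947 under DMSO. The same skipping reads also count against an exon of its neighbour NME2, so these 2 calls, counted as separate events above, are not independent. A 345-nt exon in a noncoding transcript of KRT8 had 0.189 and 0.212, against 0.5 and 0.67 at α-amanitin 2 and 0.842 and 1 under DMSO.

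The other 4 short exons printed above were less included at DRB 10. In HNRNPC, an abundant binder of uridine runs in pre-mRNA, the 26-nt exon of the 5′ untranslated region was at 0.234 and 0.246 at DRB 10, at 0.455 and 0.561 at α-amanitin 2 and at 0.631 and 0.667 under DMSO (adjusted p = 0.035). The 3 groups did not overlap. The 6-nt exon of NSFL1C, a cofactor of the ATPase p97, had no listed joining read at DRB 10 and was included at 0.117 and 0.120 at α-amanitin 2 and at 0.121 and 0.163 under DMSO. The 9-nt coding exon of COL4A5, a chain of basement membrane collagen, was likewise at 0 in both DRB 10 libraries, on 20 and 17 skipping reads, and at 0.342 and 0.391 at α-amanitin 2 and 0.805 and 0.462 under DMSO. The 24-nt exon of GOPC, a Golgi scaffold, was at 0.286 and 0.315 at α-amanitin 2, on 16 and 23 joining reads. It was at 0 in the DRB 10, DMSO and α-amanitin 1 libraries alike, so here only α-amanitin 2 stood apart.

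Called exons were described by their length, position and base composition, which the test did not use, each event counted once. The median length was 136 nt for exons more included at DRB 10, 157 nt for those less included and 119 nt for all tested events. Exons of 30 nt or less made up 4.88%, 8.33% and 3.62% of these classes. Lengths depend on which exon was kept for an event, since the same reads can belong to longer ones. In RPS3 and RPS3A, the reads of the 15-nt and 19-nt exons are also those of intervals of 1300 and 181 nt. The 5′ untranslated region held 24.4% of the more included and 15.3% of the less included events, against 9.99% of all, and the 3′ untranslated region 9.76%, 2.78% and 1.87%. Exons bounded by AG and GT made up 63.4% of the more included, 51.4% of the less included and 66.1% of all events. The rest lacked AG before or GT after the exon, so their inclusion need not describe the skipping of an internal exon. Among exons bounded by AG and GT, median GC content was 53.9% in the more included, 44.2% in the less included and 49.5% in all. Median inclusion under DMSO, whose libraries were part of the fit, was 0.164 in the more included, 0.945 in the less included and 0.752 in all. Of 137 tested events in ribosomal protein genes, 12 were called, 6 in each direction, in 9 of 43 genes. In hnRNP genes 5 of 83 events were called, in 2 genes.

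The last question was whether the libraries differed in unspliced RNA. Reads that cross an exon-intron border without a split were set against the split reads of the same intron, and the share of unspliced reads was tested as the exon inclusion was. Over introns assigned to a gene and listed in every library of the fit, the share was 4.37% and 3.53% at DRB 10, 3.92% and 3.5% at α-amanitin 2 and 4.05% and 3.70% under DMSO. The 3 groups overlapped in that share. Of 5953 introns tested, 4 were lower (0.0672%) and 0 higher (0%) at DRB 10 by the quasi-binomial test, and 925 had an unadjusted p under 0.05. The median difference was 0.16 percentage points over introns, and 3152 of the 5953 had a higher value at DRB 10. The number of calls fell to 0 with only the 4 compared libraries, without the α-amanitin 1 libraries or with the replicate number as a block, and with every split read at both splice sites as the reference only HNRNPM passed.

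The ends of the 4 called introns, and of the intron of NFKB2 that came close to passing, are printed because they are the splice sites where unspliced reads were counted. The start has 3 exon and 6 intron bases, the end 20 intron and 3 exon bases, read 5′ to 3′ on the strand of the gene in GRCh37, with the GT and AG of the intron in capitals.
HNRNPM, chr19:8530247-8530363, plus strand, start: aagGTgatg
HNRNPM, end: agattatccatgcattacAGgct
SNRPB, chr20:2442440-2443281, minus strand, start: gagGTaagt
SNRPB, end: ttgtctggtttcccttacAGggc
TAF15, chr17:34151104-34160910, plus strand, start: tagGTatgg
TAF15, end: cttcaatttttcctctgcAGtgg
HNRNPC, chr14:21698526-21699155, minus strand, start: cggGTcagt
HNRNPC, end: tttcggtatttatttttcAGctc
NFKB2, chr10:104155554-104155644, plus strand, start: gagGTcgga
NFKB2, end: gccactcctcccaactttAGgcg

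In HNRNPM, an hnRNP that binds GU-rich RNA, the 117-nt intron was unspliced in 23.3% and 25.6% of reads at DRB 10, 51.7% and 55.3% at α-amanitin 2 and 56.7% and 62.9% under DMSO (adjusted p = 0.0097). Its 3′ end held 10 pyrimidines in the 18 bases before the AG, the fewest of the 5 introns shown, where the others held 14 or 15. In SNRPB, a Sm protein of the spliceosome, the 842-nt intron stood at 32.1% and 32.3%, 58.1% and 55.0%, and 65.7% and 65.0% (adjusted p = 0.0097). The 630-nt intron of HNRNPC was at 20.5% and 25.1% at DRB 10, 40.0% and 39.3% at α-amanitin 2 and 41.7% and 38.1% under DMSO. In TAF15, an RNA-binding protein of the FET family, an unannotated intron of 9807 nt was at 76.4% and 85.4% against 98.3% and 97.8%. It had few split reads, 46 and 35 at DRB 10, 5 and 6 at α-amanitin 2 and 10 and 8 under DMSO. With every split read at both splice sites as the reference, the SNRPB difference shrank from -24.24 to -13.59 percentage points. HNRNPC went from -16.38 to -6.71, HNRNPM from -29.27 to -22.66 and TAF15 from -16.7 to -18.75. In each of the 4 introns both DRB 10 libraries were below the other groups, and the α-amanitin 2 libraries were nearer to DMSO than to DRB 10.

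Other introns differed as much or more in value without passing. The 91-nt intron of NFKB2, an NF-kB subunit whose gene was called higher at DRB 10, was unspliced in 36.2% and 34.8% of reads at DRB 10, 83.3% and 80.0% at α-amanitin 2 and 68.0% and 69.2% under DMSO, with 21 and 24 unspliced reads at DRB 10 (adjusted p = 0.058). The largest differences toward more unspliced RNA at DRB 10, none past the threshold, included HNRNPH3 at 74.3% and 37.5% against 16.7% and 14.5%, TUBB6 at 90.3% and 76.5% against 41.9% and 43.2%, and HNRNPDL at 53.8% and 58.8% against 36.4% and 12.2%. The TUBB6 intron had 3 and 12 split reads of its own at DRB 10. With every split read at both splice sites as the reference, its difference fell from 39.14 to 4.48 percentage points. Those of HNRNPH3 and HNRNPDL fell from 43.94 to 19.91 and from 38.6 to 21.59. The DRB 10 libraries of HNRNPH3 lay far from each other, and the lower one was close to the higher DMSO library at 35.1%. Summed per gene, 0 of 2713 genes passed (0%), with a lowest adjusted p of 0.065 and 317 genes at an unadjusted p under 0.05. RFNG, a fringe glycosyltransferase, showed one of the larger decreases, from 54.35% and 57.38% at α-amanitin 2 to 24.51% and 17.60% at DRB 10 (adjusted p = 0.13). TMEM129, an ER ubiquitin ligase, stood at 32.47% and 33.72% at DRB 10 and at 6.80% and 14.68% at α-amanitin 2 and did not pass either.

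**Figure D5:**
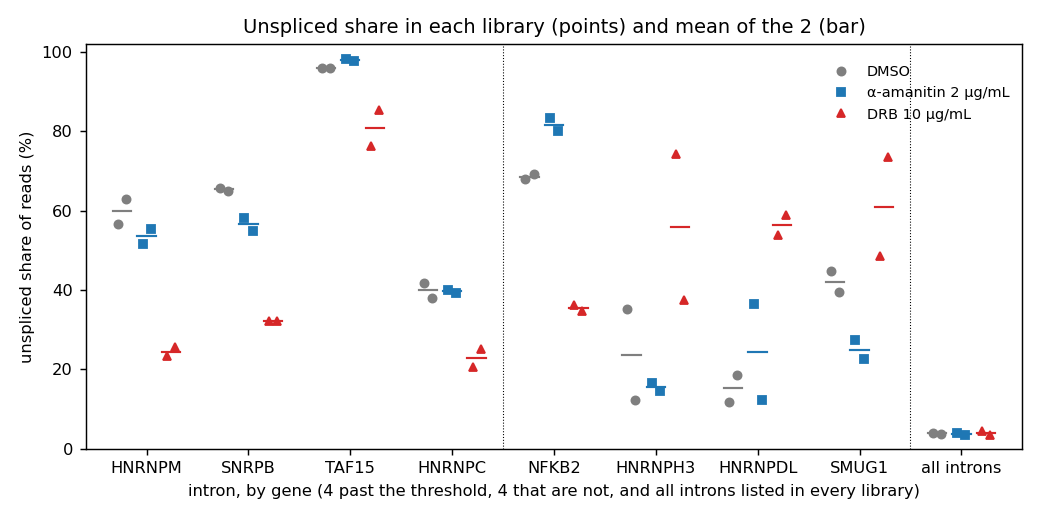
Share of unspliced reads in percent of 4 introns past the threshold (left), 4 not past it (middle) and all introns listed in every library (right), with points for libraries and bars for the mean of the 2. The DRB 10 libraries lie below the others in the left 4, while the share over all introns stays between 3.5% and 4.37% in all groups.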

How the data were processed

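RNA-seq of A549 cells was analysed from the table deposited for each library. The authors aligned reads to GRCh37 (hg19) with STAR (2.7.3a in the submitters' processing notes) and counted split and unspliced reads at splice sites with the IPSA pipeline, filtering junctions by offset entropy, annotation and GT/AG dinucleotides. The deposited tables hold these raw read counts as key-value pairs, and the authors' deposited score column (inclusion on a display scale) was not used. Listed introns had at least 11 reads of any kind at both splice sites together, and 3 is the lowest listed number of split reads, so low values are truncated. Since this truncation is not that of a gene count table, no negative binomial test was run.

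Introns were assigned to genes through GENCODE 44 in GRCh37 coordinates, which matched 87.0% of introns and 90.4% of exons exactly, and 1464 introns shared by genes were left out. Split reads were summed per gene, filtered at 10 reads in at least 2 of the 4 compared libraries, scaled with TMM factors and tested with limma 3.58.1 (voom) in R 4.3.3. Exon inclusion and unspliced shares were tested with a quasi-binomial model whose dispersions were moderated by limma's squeezeVar with a floor of 1. Exons needed a denominator of 10 in each library and introns 20 reads in each library. The fit held 8 libraries (DMSO, both α-amanitin doses and DRB 10) with 4 residual degrees of freedom. All p-values are two-sided and adjusted by the Benjamini-Hochberg method over all features of a test, with a threshold of 0.05. The tests of genes, exons, introns and unspliced shares per gene were tried on simulated data. Gene assignment, the treatment of unlisted introns and the counting of events were not.

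Gene lists and named genes were chosen with earlier results of these data known. Named genes were the 10 largest differences in each direction among called, non-overlapping genes with a mean of at least 50 split reads, up to 4 members of each list, POLR2A, CDK9, HEXIM1 and CCNL1, and named exons and introns the 8 and 5 largest in each direction. The 12 largest differences in each direction over introns listed in every library, among genes holding in 3 ways, were added after the data were seen, and so were the exons outside that rule. Sequences were read from the GRCh37 genome with samtools 1.23.1. Some named genes are not reported here.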

Additional observations from a re-analysis of the deposited data

How the results depend on the processing

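With 2 libraries a group, depth and the listing minimum limit the low genes, and single libraries decide many calls. For genes, the count of 2590 was 1047 to 2392 when each of the 8 libraries was left out in turn (1448 without α-amanitin 2 replicate 1, 1059 without DRB 10 replicate 1 and 1047 without DRB 10 replicate 2), and 1981 to 3665 under the other settings. For exons, the count of 229 was 0 with only the 4 compared libraries, 31 without α-amanitin 1, 0 with no minimum on reads, 442 with limma on log odds (110 of them shared), 2581 when the reads of a group were pooled for Fisher's exact test, a test without the spread between libraries, and 113 as distinct events. Leaving out each library gave 0 to 32 exons. With all 10 libraries, or a denominator of 30, it was 264. For introns, the count of 4 was 0 with only the 4 compared libraries, 0 without α-amanitin 1, 2 with no filter, 48 with reads at exon borders in place of introns, 0 with limma on log odds, 1 with all split reads at both sites and 0 to 2 with each library left out. For unspliced shares per gene, the count of 0 became 1 with at least 100 unspliced reads and 0 to 53 with each library left out, 53 being the count without DRB 10 replicate 2. These calls did not all run downward at DRB 10. Of the 48 with reads at exon borders, 26 were higher at DRB 10 and 22 lower. The unspliced shares called without DRB 10 replicate 2 were mostly higher, but rest on 1 DRB 10 library. The cause of these moves was not tested, apart from the fewer libraries in the fit. Over all alternatives, named genes kept direction and side of the threshold in 2120 values and lost the threshold in 224, exons in 275 and 901, and introns in 95 and 51. The sign reversed in 2 named genes, BRIP1 (0.30 over introns listed in every library) and CCNL1 (-0.21 to 0.65 with each library left out, negative without α-amanitin 2 replicate 2 or DRB 10 replicate 1).

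Replicate numbers 1 and 2 recur in each group, but no label says that a number marks a shared culture or day, so the libraries were not treated as pairs. Deviations of same-numbered libraries correlated at 0.19 to 0.49 across 7057 genes among the 4 fitted groups, and at 0 to 0.07 with DRB 25. With the replicate number as a block, 3665 genes passed (2587 of them shared with the fit without it), 0 exons, 0 introns and 3 genes by unspliced share.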
